A study of Mus musculus with 2 samples.

Results

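Meiotic arrest in the mouse oocyte is held by a small set of genes, and 10 of them were followed here in the ovary at postnatal day 2: *Gpr3*, *Gpr12*, *Pde3a*, *Adcy3*, *Npr2*, *Nppc*, *Ccnb1*, *Wee2*, *Fzr1* and *Cdk1*. They were taken by gene symbol for their known roles, with no threshold on a measured value, and are 10 of the 31057 genes in the count matrices. The tissue was the whole ovary of CD1 pups, broken up into cells from which 2 single-cell libraries were made, named replicate 1 and replicate 2, each pooling several pups of 1 female. Transcripts were captured by their 3′ ends, and the unit of measurement is the unique molecular identifier (UMI), a barcode that stands for 1 captured molecule. The mice carried no stated mutation and received no treatment, so the comparisons run between cell types of the same ovaries. The question is which parts of the arrest system were already transcribed at this age, and in which cells.

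As background, the fully grown oocyte stays in prophase of the first meiotic division as long as its cyclic AMP is high. The receptors GPR3 and GPR12 signal through the stimulatory G protein to adenylyl cyclase 3 (*Adcy3*), which makes cyclic AMP, and the phosphodiesterase PDE3A breaks it down. Granulosa cells make the peptide CNP (*Nppc*) and its receptor NPR2, a guanylyl cyclase, and the cyclic GMP they form passes through gap junctions into the oocyte and inhibits PDE3A. Downstream, cyclin B1 (*Ccnb1*) and the kinase CDK1 drive the entry into meiotic division, while the oocyte kinase WEE2 phosphorylates and inhibits CDK1 and FZR1 directs the anaphase-promoting complex to destroy cyclin B1.

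Cells were assigned to a type when they reached a minimum of UMIs of its fixed markers and stayed under the minimum of every other type: *Ddx4*, *Dazl* and *Ooep* for germ cells, *Foxl2*, *Fst* and *Wnt6* for granulosa cells, *Col1a2* and *Dcn* for interstitial cells and *Upk3b* for mesothelial cells. The germ gate held 195 cells in replicate 1 and 448 in replicate 2, the granulosa gate 1640 and 578, and the interstitial gate 1105 and 1829. The mesothelial gate held only 13 and 35 cells, and all its values are imprecise. Another 342 cells passed the mesothelial and granulosa gates and no other. Germ cells were far deeper than the others, with a median of 76739 and 49892.5 UMIs per cell against 9776 and 8888 in granulosa and 6306 and 4681 in interstitial cells. The summed level of 7 germ cell markers was 11511 and 11962 UMIs per 1000000 UMIs of the gate (CPM) in the germ gate and 57.2 to 117 CPM in the granulosa and interstitial gates. Germ cell RNA was thus measurable in these somatic gates. Of the 7 markers 3 also define the germ gate, and cells that passed it were left out of the other gates. The low level there is therefore partly set by the gates. Markers below those minimums remained in the gates, with *Dcn* in 38.0% and 41.5% of germ cells and *Foxl2* in 32.2% and 33.4% of interstitial cells. The 504 and 1102 cells that passed more than 1 gate were left out. The germ cells of the libraries fell largely into separate clusters, with 197 and 11 cells in one, 10 and 441 in another and 30 and 224 in one of low RNA content, so levels are given per library.

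The sequence just before the transcription start is shown for 4 genes whose expression differed in kind. They are *Wee2*, a germ cell transcript, *Nppc*, a granulosa cell transcript, and *Cdk1* and *Ccnb1*. *Cdk1* and *Ccnb1* were found in germ cells and, among somatic cells, at higher levels in cycling cells. *Cdk1* was also present in other interstitial cells, at 59.8 and 61.4 CPM. Each line gives the 250 bases upstream of the start, 5′ to 3′ on the strand of the gene, from RefSeq on GRCm38.p6. The *Wee2* stretch lies at chr6:40442613-40442862 (plus strand), *Nppc* at chr1:86670574-86670823, *Cdk1* at chr10:69352913-69353162 and *Ccnb1* at chr13:100786487-100786736 (all minus strand). The start that RefSeq gives for *Wee2*, *Cdk1* and *Ccnb1* lies inside the gene as GENCODE annotates it, so that the *Wee2* window as a whole and the other two in part fall within the GENCODE gene. Capitals mark matches, on either strand, to the E-box CANNTG, the CCAAT box CCAAT, the cell-cycle element TTTGAA, the TATA box TATAAA and the homeobox core TAATT. 
Wee2: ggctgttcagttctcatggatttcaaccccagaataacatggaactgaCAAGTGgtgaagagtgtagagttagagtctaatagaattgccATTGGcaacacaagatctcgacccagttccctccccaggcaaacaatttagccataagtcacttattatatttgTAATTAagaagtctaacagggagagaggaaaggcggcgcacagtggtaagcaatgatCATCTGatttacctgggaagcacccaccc
Nppc: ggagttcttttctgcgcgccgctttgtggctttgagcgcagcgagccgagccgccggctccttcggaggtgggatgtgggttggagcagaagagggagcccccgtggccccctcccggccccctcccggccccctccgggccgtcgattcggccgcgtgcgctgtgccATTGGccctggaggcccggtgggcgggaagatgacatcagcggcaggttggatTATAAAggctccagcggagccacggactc
Cdk1: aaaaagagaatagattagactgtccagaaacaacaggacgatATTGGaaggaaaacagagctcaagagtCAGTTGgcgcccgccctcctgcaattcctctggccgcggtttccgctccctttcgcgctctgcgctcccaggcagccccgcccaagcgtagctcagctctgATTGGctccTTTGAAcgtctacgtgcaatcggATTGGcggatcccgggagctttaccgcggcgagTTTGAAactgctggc
Ccnb1: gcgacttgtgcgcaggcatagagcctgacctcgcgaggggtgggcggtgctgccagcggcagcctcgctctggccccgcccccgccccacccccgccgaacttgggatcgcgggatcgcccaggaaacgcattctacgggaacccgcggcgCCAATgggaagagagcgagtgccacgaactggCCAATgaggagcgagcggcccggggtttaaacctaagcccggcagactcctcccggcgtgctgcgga

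In these windows *Wee2* held 2 E-boxes, a CCAAT box and a TAATT core that matched on both strands with overlapping letters. *Nppc* held a TATA box 29 bases before the start and a CCAAT box. *Cdk1* held an E-box, 3 CCAAT boxes and 2 copies of TTTGAA, and *Ccnb1* held 2 CCAAT boxes and no TTTGAA. Such letters are common: of 32851 promoter windows of the same length, 66.2% held an E-box, 33.8% a CCAAT box, 25.03% TAATT, 16.0% TTTGAA and 12.4% TATAAA. The motifs were chosen after the expression values were known, and a match is a description of these letters, not of a bound site. Promoter entries were matched for 9 of the 10 genes, with 2 entries each for *Gpr12* and *Adcy3*, and *Pde3a* was without one.

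Each gate was compared with the mean of the other 3 gates over UMIs summed per library. A gene was called when its adjusted p was under 0.05 and its change over 2-fold. The comparisons share their sums, so a low level in 1 gate raises the change of the others. Of the 10 genes, 9 were tested, since *Gpr12* had no UMI. In the germ gate 6 were called higher (*Gpr3*, *Pde3a*, *Ccnb1*, *Wee2*, *Fzr1* and *Cdk1*), where 33.5% of the 14667 genes tested were, and 3 lower (*Adcy3*, *Npr2* and *Nppc*), against 21.6%. In the granulosa gate 3 were higher (*Nppc*, *Adcy3* and *Npr2*), against 18.3% of all genes, and 4 lower (*Pde3a*, *Ccnb1*, *Cdk1* and *Fzr1*), against 6.11%, to which DESeq2 added *Gpr3* and *Wee2*. In the interstitial gate 3 were higher (*Npr2*, *Pde3a* and *Adcy3*), against 17.5%, and 0 lower by edgeR, against 10.5%. There *Fzr1* passed the adjusted p in edgeR (0.000778) and missed the call only by its log2 change of -0.98, just under 2-fold. DESeq2 called 1 (*Wee2*) lower. In the mesothelial gate 0 were called in either direction by edgeR or by DESeq2, and 0 had an unadjusted p under 0.05 in edgeR, where 6.3% of all genes were called higher and 2.71% lower. The median log2 change of all genes in the germ comparison was 0.37 rather than 0, and -0.04 without the mesothelial gate. Calls were made from 0 and not from this median, which is given beside the germ medians of gene lists below.

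**Figure D1:**
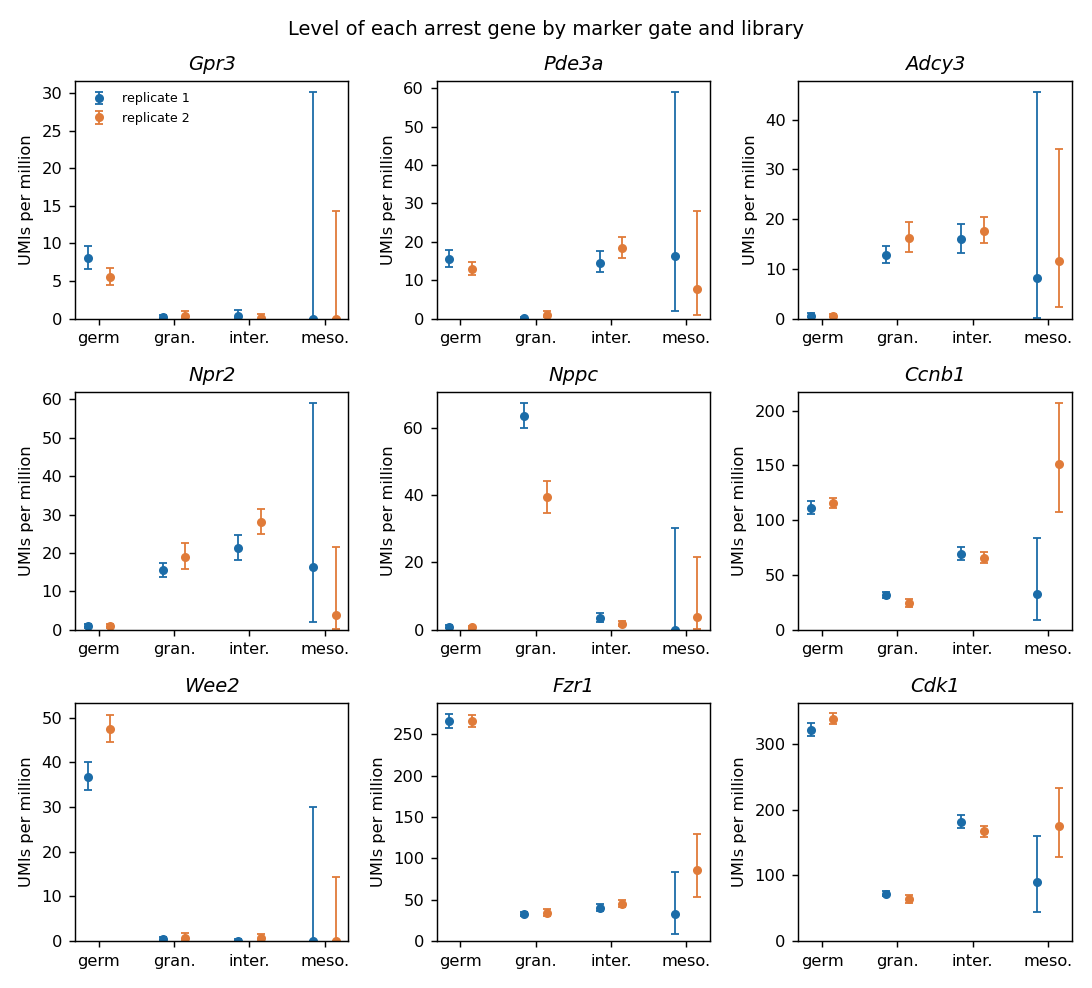
UMIs per 1000000 (CPM) (y axis, starting at 0) of 9 arrest genes in the germ, granulosa, interstitial and mesothelial gates (x axis), 1 point per library, with exact 95% Poisson intervals that cover counting error only. Gpr3 and Wee2 stand out in germ cells and Nppc in granulosa cells, Adcy3 and Npr2 are lowest in germ cells, and the mesothelial intervals are wide in every panel.

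Of the cyclic AMP arm, the receptor *Gpr3* (chr4:133209340-133212536, minus strand) was found in germ cells. Its 113 UMIs in replicate 1 and 106 in replicate 2 gave 8.06 and 5.54 CPM, while granulosa cells had 4 and 2 UMIs (0.209 and 0.289 CPM) and interstitial cells 3 and 1 (0.388 and 0.0996 CPM). The germ libraries did not overlap with either. The pooled germ level was 28.7-fold that of granulosa cells (95% counting interval 13.0 to 79.1) and 29.4-fold that of interstitial cells (11.3 to 109), with 38.6 and 19.2 against granulosa and 20.8 and 55.7 against interstitial cells in the separate libraries. No fold can be given against the mesothelial gate, where no UMI was seen and the 3-count floor of 24.5 and 11.7 CPM lies above the germ level. The fitted log2 change of 6.34 ± 0.72 (SE, adjusted p = 7.85e-06) rests in part on those zeros, and without the mesothelial gate it was 4.75 ± 0.43 (adjusted p = 3.57e-06). With clusters in place of gates the germ change was 3.96. The larger mesothelial cluster, of 185 and 286 cells, then held 8 and 10 *Gpr3* UMIs, 2.54 and 2.27 CPM, and a small one of 1 and 15 cells, in which germ cell genes such as *Dppa3* and *Nlrp5* stood above the larger one, held 0.

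*Gpr3* was sparse per cell. A UMI was present in 45.1% of germ cells in replicate 1 (95% exact binomial interval 38.0 to 52.4) and 20.1% in replicate 2 (16.5 to 24.1), against 0.272% and 0.0547% of interstitial cells at a much lower median depth. Once every cell was thinned to 3000 UMIs, the shares were 2.11% and 1.06% of germ cells and 0.0922% and 0.0586% of interstitial cells. Intervals and floors here and below cover counting error only. *Gpr12*, the related receptor (chr5:146582398-146585239), had 0 UMIs in every deposited cell of both libraries. In germ cells 3 counts would correspond to 0.214 and 0.157 CPM, and 0 of 195 and 0 of 448 cells allow, at 3 counts of the total, a share of up to 1.54% and 0.67% of cells with a UMI. *Gpr12* was therefore not detectable at this depth.

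*Adcy3* (chr12:4133103-4213525), the cyclase the receptors act on in oocytes, showed the opposite pattern. Germ cells held 8 and 10 UMIs, 0.571 and 0.523 CPM, against 12.8 and 16.2 CPM in granulosa cells and 15.9 and 17.6 CPM in interstitial cells. The libraries of the granulosa and interstitial gates overlapped, and both stood above the germ libraries. Against the mean of the other gates the log2 change was -4.42 ± 0.49 in germ cells (adjusted p = 3.25e-06). It was 1.62 ± 0.26 in granulosa (adjusted p = 0.000306) and 1.93 ± 0.25 in interstitial cells (adjusted p = 5.08e-05), where the low germ level enters the mean. The pooled granulosa level was 0.811-fold that of interstitial cells (0.694 to 0.949) and 25.2-fold that of germ cells (15.7 to 43.0). The germ level was 4.46% and 3.23% of the granulosa level, where the 7 granulosa markers stood in germ cells at 0.295% and 0.333% of theirs. Of these markers 3 define the granulosa gate, so their level in germ cells is partly set by the gates. The gene overlaps *Cenpo* on the other strand.

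*Pde3a* (chr6:141249269-141507448), the phosphodiesterase, was shared between germ and interstitial cells. Its level was 15.6 and 13.0 CPM in germ cells and 14.6 and 18.4 CPM in interstitial cells, where it had 113 and 185 UMIs. The 2 gates overlapped, and germ cells were higher in replicate 1 and lower in replicate 2. These levels are shares of the UMIs of a gate, and germ cells were far deeper per cell. At full depth a *Pde3a* UMI was present in 61.5% and 36.6% of germ cells, against 9.59% and 9.40% of interstitial cells. Once cells were thinned to the same number of UMIs, the shares were 2.11% and 4.75% against 4.79% and 5.51%. Granulosa cells held 2 and 7 UMIs, 0.104 and 1.01 CPM, and fell by 5.18 ± 0.78 on the log2 scale (adjusted p = 0.00019). The pooled germ level was 40.8-fold that of granulosa cells (21.3 to 89.9), but 149-fold (40.8 to 1238) in replicate 1 and 12.9-fold (6.16 to 32.4) in replicate 2. Against the mean of the other gates the log2 change was 2.00 ± 0.38 in germ cells (adjusted p = 0.000372) and 2.10 ± 0.38 in interstitial cells (adjusted p = 0.000699). All 7 interstitial clusters carried it, at 5.5 to 28.1 CPM. The same-strand transcripts *Gm10400* and *Gm43958* lie inside the gene, and their reads may be counted with it or apart from it.

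Of 24 further genes of the cyclic AMP pathway 20 were tested, and in germ cells 0 were called higher by edgeR or DESeq2 (2 at an unadjusted p under 0.05) and 7 lower, with a median log2 change of -0.13 against 0.37 over all genes. *Rgs2*, a regulator that restrains G protein signalling, stood at 5.85 and 5.70 CPM in germ cells and at 445 and 327 CPM in granulosa and 223 and 350 CPM in interstitial cells (log2 change -4.82 ± 0.28, adjusted p = 8.41e-09). *Prkar1b*, a regulatory subunit of protein kinase A, fell by 4.61 ± 0.79 and the cyclase gene *Adcy6* by 2.57 ± 0.43 on the log2 scale (adjusted p = 0.000174 and 0.000133). *Adcy4*, also called lower, had 0 UMIs in germ cells and at most 10 in any sum outside them. The shares of all genes called in germ cells, 33.5% higher and 21.6% lower, hold for this and the other lists. In interstitial cells 9 of the 20 were higher and 1 lower, against 17.5% and 10.5% of all genes. In granulosa cells 5 were higher and 1 lower (4 lower by DESeq2), against 18.3% and 6.11%.

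Of the cyclic GMP arm, the ligand gene *Nppc* (chr1:86666291-86670571) marked granulosa cells. It had 1217 and 272 UMIs there, 63.5 and 39.3 CPM, against 3.36 and 1.69 CPM in interstitial cells and 0.785 and 0.680 CPM in germ cells, where it had 11 and 13 UMIs. Both granulosa libraries lay above every other sum, by a log2 change of 4.91 ± 0.30 (adjusted p = 7.2e-08). A UMI was found in 36.8% (34.5 to 39.2) and 23.0% (19.6 to 26.7) of granulosa cells, and in 15.7% and 9.41% after thinning to 3000 UMIs, against 0.645% and 0.644% of interstitial cells. The interstitial level was 5.29% and 4.31% of the granulosa level, where the 7 granulosa markers summed in interstitial cells to 3.75% and 5.39% of theirs. That sum was uneven, since *Foxl2* gave 356 of its 658 and 611 of its 1045 UMIs, and *Fst* 14 and 11. Since 3 of the 7 markers define the granulosa gate, their level in interstitial cells is partly set by the gates. In germ cells *Nppc* fell by 3.04 ± 1.03 on the log2 scale (adjusted p = 0.0186), while without replicate 2 the change was -0.88, in a fit where the mesothelial sum of replicate 1 held 0 UMIs. With clusters in place of gates the germ cells of replicate 2 stood higher, at 2.54 CPM of *Nppc*, 2.87 of *Npr2* and 1.27 of *Adcy3*, and those of replicate 1 at 0.731, 0.9748 and 0.609 CPM.

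*Nppc* varied between granulosa clusters, which were formed without the 10 genes. It was highest in the cluster led by the division genes *Top2a* and *Pclaf*, at 83.6 and 88.4 CPM, and lowest in the cluster led by *H19* and *Krt18*, at 17.5 and 6.7 CPM. The 3 other clusters lay between, at 40.9 to 67.6 CPM in replicate 1 and 30.7 to 36.6 CPM in replicate 2. The order of the highest and the lowest cluster was the same in both libraries, and was not tested. Their shares differed between the libraries, with 462 and 127 cells in the first and 161 and 267 in the last.

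**Figure D2:**
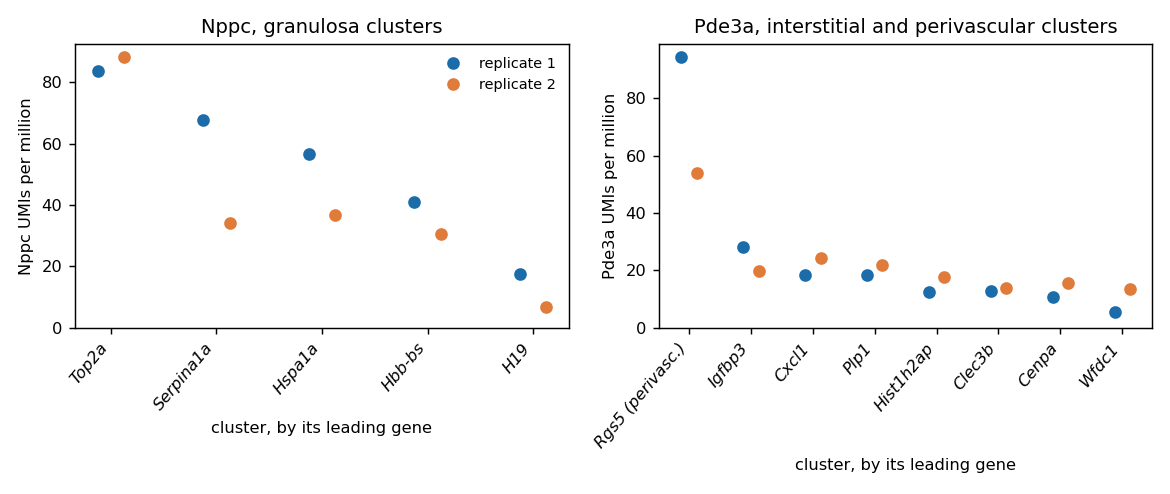
UMIs per 1000000 (CPM) (y axis, starting at 0) of Nppc in the 5 granulosa clusters (left) and of Pde3a in the 7 interstitial clusters and the perivascular cluster (right), 1 point per library, each cluster named by its leading gene among clusters of its type. Nppc is highest in the Top2a cluster and lowest in the H19 cluster, and Pde3a is highest in the perivascular cluster, at 94.5 and 53.9.

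*Npr2* (chr4:43631935-43651244), the receptor of CNP, was present in both somatic gates and scarce in germ cells. Its level was 21.2 and 28.1 CPM in interstitial cells, 15.6 and 19.1 CPM in granulosa cells and 0.856 and 0.941 CPM in germ cells, from 12 and 18 UMIs. The interstitial libraries lay above the granulosa libraries and both above the germ libraries. The log2 change was 2.30 ± 0.27 in interstitial cells (adjusted p = 1.79e-05), 1.58 ± 0.28 in granulosa cells (adjusted p = 0.000745) and -3.84 ± 0.58 in germ cells (adjusted p = 5.71e-05). The low germ level enters the mean against which both somatic gates were set. The granulosa call was lost with clusters in place of gates, at 0.95. In granulosa cells thinned to 3000 UMIs, *Npr2* was found in 2.35% (0.868 to 5.05) and 5.66% (1.18 to 15.7) of cells with *Nppc*, and in 4.81% (3.74 to 6.08) and 6.47% (4.50 to 8.97) of cells without it. These intervals overlap, and the ligand and receptor transcripts were seen together in 6 and 3 cells. *Npr2* was lower in the *Top2a* cluster, at 8.9 and 10.3 CPM, than in the granulosa gate as a whole.

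Of 16 further genes of the cyclic GMP pathway and its gap junctions 14 were tested, and in germ cells 3 were higher and 6 lower (8 by DESeq2), against 33.5% and 21.6% of all genes, with a median log2 change of -2.25 against 0.37 over all genes. *Gja4*, the connexin of the oocyte side of the junctions, stood at 228 and 221 CPM in germ cells and at 1.04 to 2.89 CPM in granulosa and interstitial cells (adjusted p = 2.3e-10). *Gja1*, the connexin between granulosa cells, stood at 388 and 179 CPM in granulosa cells and 0.785 and 0.680 CPM in germ cells (log2 change -7.06 ± 0.38, adjusted p = 4.17e-09). *Pde1c*, a phosphodiesterase of both cyclic nucleotides, was at 13.3 and 14.1 CPM in germ cells and at most 0.433 CPM in granulosa and interstitial cells (adjusted p = 3.09e-07). *Gucy1a1*, a subunit of the soluble guanylyl cyclase, was highest in interstitial cells, at 314 and 306 CPM, and stood at 1.00 and 1.26 CPM in germ cells (log2 change -6.11 ± 0.36, adjusted p = 9.4e-09). For *Gja4* and *Pde1c* no UMI was seen in the mesothelial gate, so no fold is given. In granulosa cells 4 of the 14 were higher and 0 lower by edgeR, against 18.3% and 6.11% of all genes, with 1 lower at an unadjusted p under 0.05 and 3 called lower by DESeq2. In interstitial cells 7 were higher and 1 lower, against 17.5% and 10.5%.

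Of the CDK1 arm, the inhibitory kinase *Wee2* (chr6:40439088-40466813) was found almost entirely in germ cells. Its 516 and 908 UMIs gave 36.8 and 47.5 CPM, against 8 and 5 UMIs in granulosa cells (0.418 and 0.722 CPM), 0 and 7 in interstitial cells and 0 and 0 in mesothelial cells. The pooled germ level was 86.2-fold that of granulosa cells (50.3 to 162), 109-fold that of interstitial cells (52.8 to 272; at least 94.9-fold in replicate 1 and 68.1-fold in replicate 2), and at least 5.44-fold higher than that of mesothelial cells, set against 3 counts over both libraries. The log2 change was 8.38 ± 0.53 (adjusted p = 4.03e-08), or 6.48 ± 0.36 without the mesothelial gate. A UMI was present in 79.0% and 63.4% of germ cells, and in 10.5% (6.55 to 15.8) and 12.1% (9.03 to 15.9) after thinning to 3000 UMIs, where granulosa and interstitial cells had 0% to 0.184%.

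*Fzr1* (chr10:81366222-81378516), the activator of the anaphase-promoting complex, was expressed in every gate and highest in germ cells. The germ level was 266 CPM in each library, against 32.2 and 33.8 CPM in granulosa, 40.0 and 44.9 CPM in interstitial and 32.6 and 85.4 CPM in mesothelial cells. The germ libraries stood apart from all others, by a log2 change of 2.74 ± 0.15 (adjusted p = 4.98e-09). The pooled germ level was 8.15-fold that of granulosa cells (7.59 to 8.75) and 6.22-fold that of interstitial cells (5.78 to 6.71). *Fzr1* was found in 57.4% and 57.0% of germ cells after thinning to 3000 UMIs, against 8.48% and 9.59% of granulosa and 9.59% and 11.8% of interstitial cells.

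*Cdk1* (chr10:69335146-69352938) was also highest in germ cells when each gate was taken as a whole, cycling and other cells together. It stood at 322 and 339 CPM in germ cells, 182 and 167 CPM in interstitial cells and 72.0 and 63.6 CPM in granulosa cells, and the libraries of these gates did not overlap (germ log2 change 1.66 ± 0.15, adjusted p = 3.89e-07). In the few mesothelial cells *Cdk1* stood at 89.8 and 175 CPM, from 11 and 45 UMIs. *Ccnb1* (chr13:100778650-100786570) differed less. Its level was 112 and 116 CPM in germ cells, 69.1 and 65.7 CPM in interstitial cells, 31.8 and 24.1 CPM in granulosa cells, and 32.6 and 151 CPM in the few mesothelial cells, whose libraries lay on both sides of the germ level. The germ change of 1.14 ± 0.20 (adjusted p = 0.000227) was close to the 2-fold threshold, and fell below it, at 0.95, when libraries were scaled by their total UMIs alone. A *Ccnb1* pseudogene is annotated, and reads that match both cannot be told apart.

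**Figure D3:**
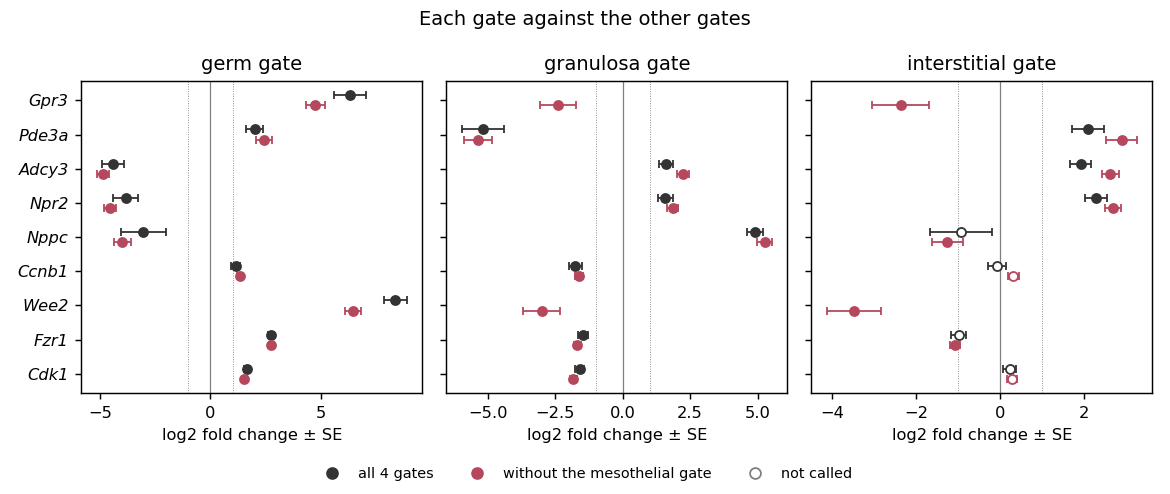
Log2 fold change with its standard error (x axis) of 9 arrest genes in the germ, granulosa and interstitial gates, each against the mean of the other gates, with all 4 gates and without the mesothelial gate. Filled points were called, dotted lines mark a 2-fold change, and values with a standard error over 2 (Gpr3 and Wee2 in the somatic gates with all 4 gates) are not drawn. The 9 germ changes keep their direction in both fits.

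In somatic cells *Ccnb1* and *Cdk1* were concentrated in cells that expressed cell-cycle genes. A cell was taken as cycling when, thinned to 3000 UMIs, it showed 2 or more of 10 cell-cycle genes, which held for 10.02% and 13.9% of granulosa and 19.4% and 18.0% of interstitial cells. *Ccnb1* stood at 241 and 124 CPM in cycling granulosa cells against 2.96 and 2.06 CPM in the rest, and at 286 and 265 CPM in cycling interstitial cells against 3.43 and 2.62 CPM. *Cdk1* stood at 407 and 274 CPM against 14.6 and 23.4 CPM in granulosa, and at 508 and 486 CPM against 59.8 and 61.4 CPM in interstitial cells. *Fzr1* differed less, at 73.6 and 102.6 CPM against 25.7 and 27.5 CPM in granulosa, and 74.6 and 93.4 CPM against 25.5 and 32.9 CPM in interstitial cells. These are descriptions, since *Ccnb1* and *Cdk1* belong to the same programme as the genes that define the split.

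The same rule did not divide germ cells, of which 97.4% and 98.9% passed it, since the 10 cell-cycle genes summed to 3005 and 3311 CPM in the germ gate as a whole. At 3000 UMIs a cell the germ cells that passed stood at 113.5 and 125.3 CPM of *Ccnb1*, below cycling interstitial cells in both libraries, and below cycling granulosa cells in replicate 1 but not in replicate 2. For *Cdk1* they stood at 317 and 323 CPM, again below cycling interstitial cells in both libraries and below cycling granulosa cells in replicate 1 only. They stood at 267 and 279 CPM of *Fzr1*, above cycling granulosa and interstitial cells. The exception in replicate 2 depended on the cut. With 3 or more of the 10 genes required, germ cells that passed lay below cycling granulosa cells in both libraries. *Ccnb1* then stood at 114.7 and 127.4 CPM against 310.7 and 154.8 CPM, and *Cdk1* at 329 and 330.1 CPM against 502.8 and 333.3 CPM. In the interstitial cluster led by *Cenpa* and *Cdc20*, *Ccnb1* reached 639 and 622 CPM, *Cdk1* 621 and 664 CPM and *Fzr1* 154 and 153 CPM. No test was run between these sets.

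**Figure D4:**
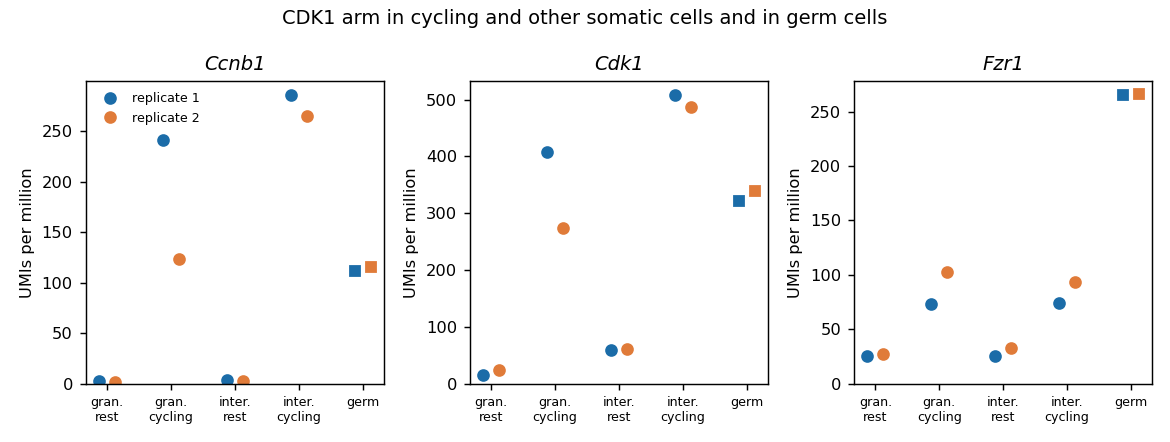
UMIs per 1000000 (CPM) (y axis, starting at 0) of Ccnb1, Cdk1 and Fzr1 in cycling and other granulosa and interstitial cells thinned to 3000 UMIs (circles), and in all germ cells unthinned (squares), 1 point per library. Ccnb1 is near 0 in somatic cells outside the cycle, and Fzr1 is highest in germ cells, at 266 in both libraries.

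Of 23 further regulators of CDK1 21 were tested, and in germ cells 8 were higher and 2 lower, against 33.5% and 21.6% of all genes, with a median log2 change of 0.79 against 0.37 over all genes. *Mos*, the kinase that starts the MAP kinase pathway of the maturing oocyte, stood at 42.9 and 46.6 CPM in germ cells and 0.129 to 0.896 CPM in granulosa and interstitial cells (adjusted p = 1.12e-08). *Fbxo43*, an inhibitor of the anaphase-promoting complex, was at 10.2 and 11.2 CPM in germ cells and called higher (adjusted p = 0.0024), although granulosa cells of replicate 2 stood at 13.3 CPM and those of replicate 1 at 2.04 CPM. *Mastl*, the kinase that restrains the phosphatase opposing CDK1, rose by 2.23 ± 0.34 and *Aurka*, a mitotic kinase, by 2.18 ± 0.17 on the log2 scale (adjusted p = 5.83e-05 and 1.4e-07). *Mos* and *Fbxo43* had no UMI in the mesothelial gate. In granulosa cells 1 of the 21 was higher (2 with the library as a block) and 9 lower, against 18.3% and 6.11% of all genes. In interstitial cells 0 were called in either direction by edgeR, where 17.5% of all genes were higher and 10.5% lower. At an unadjusted p under 0.05 there were 5 higher and 3 lower, and DESeq2 called 2 lower.

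Germ cells of at least 10000 UMIs, 184 and 322 cells, were divided at the median share of *Zp3*, a zona pellucida gene that rises as oocytes grow. The split is a cut through a range, with 41 and 52 cells close to the median on either side. Of the members 6 were tested between the upper and the lower part and 0 were called by edgeR or DESeq2, where 1.31% of 12069 genes were called in either direction. At an unadjusted p under 0.05 there were 2 in edgeR, *Wee2* and *Ccnb1*. *Wee2* stood at 44.4 and 53.9 CPM in the upper part and 26.4 and 39.9 CPM in the lower, higher in both libraries (log2 change 0.57 ± 0.22, adjusted p = 0.216). With the library as a block its adjusted p was 9.79e-07 at the same change of 0.57 ± 0.11, still under 2-fold. *Ccnb1* changed by 0.26 ± 0.11 (adjusted p = 0.234, and 0.0021 with the block). In the fit without the block, *Gpr3*, *Pde3a*, *Fzr1* and *Cdk1* changed by -0.28 to 0.28, with adjusted p-values of 0.46 to 0.894. That fit ignores that both parts come from the same libraries. With the block 0 members were called. The upper part was also deeper, with a median of 93624.5 and 70169 UMIs against 71217.5 and 52977, while with every cell thinned to 10000 UMIs *Wee2* changed by 0.57 ± 0.29 (adjusted p = 0.351) and 0 of the 5 members then tested were called by edgeR.

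Most deeply sampled germ cells carried all 4 genes of the CDK1 arm at once. With every RNA-rich germ cell at its full depth, *Cdk1* was found in 100% and 99.7% of cells, *Fzr1* in 99.5% and 100%, *Ccnb1* in 96.7% and 97.2% and *Wee2* in 83.2% and 84.2%. All 4 were found together in 83.2% (77.0 to 88.3) and 82.6% (78.0 to 86.6) of cells. After thinning to 10000 UMIs the share of cells with all 4 was 16.3% (11.3 to 22.5) and 22.4% (17.9 to 27.3). *Gpr3* and *Pde3a* were found together in 34.2% and 10.6% of cells at full depth and in 1.09% and 0.932% after thinning. The receptor, the phosphodiesterase and the 4 CDK1 genes were all seen in 56 of 184 and 33 of 322 cells, a share that the sampling of scarce transcripts limits.

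**Figure D5:**
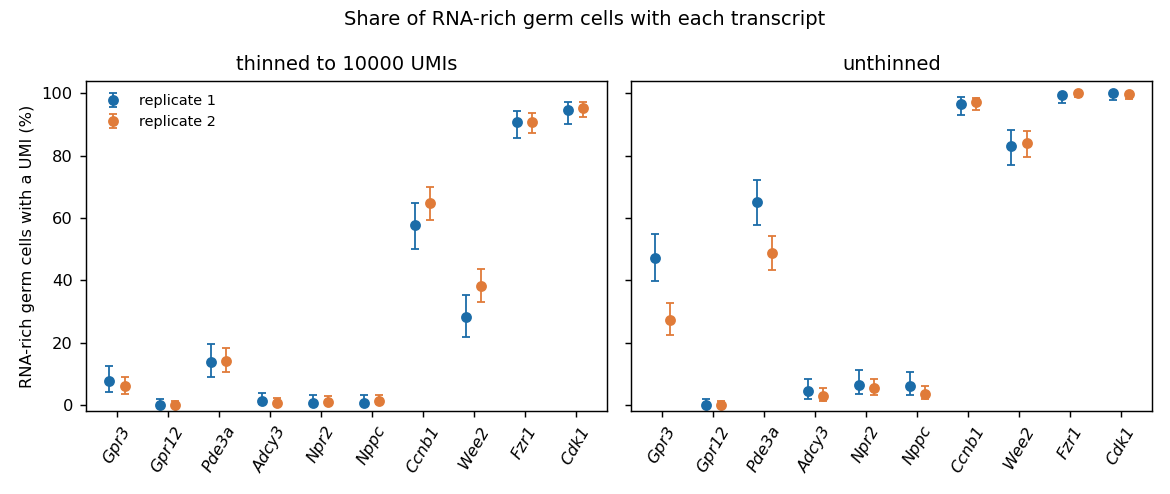
Percent of RNA-rich germ cells with a UMI of each arrest gene (y axis, 0 to 100), after thinning to 10000 UMIs (left) and at full depth (right), with exact 95% binomial intervals, 1 point per library. Cdk1 and Fzr1 are found in 90.8% to 100% of cells in both panels, Gpr12 in 0%, and Adcy3, Npr2 and Nppc in 2.80% to 6.52% at full depth.

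The 126 germ cells of replicate 2 with fewer than 10000 UMIs, at a median of 2858, also held UMIs of the CDK1 arm. They stood at 305 CPM of *Cdk1*, 220 of *Fzr1*, 142 of *Ccnb1* and 33.3 of *Wee2*, from 137, 99, 64 and 15 UMIs. *Pde3a* stood at 15.6 CPM from 7 UMIs, and *Gpr3* had only 2 UMIs. The corresponding 11 cells of replicate 1 are too few for comparison. Among germ clusters, the one of low RNA content was led by the haemoglobin genes *Hba-a1*, *Hbb-bs* and *Hbb-bt*. Whether germ cells of low RNA content were intact, or held RNA from other cells, was not tested.

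The transcripts whose levels over the 8 sums of gates and libraries ran most closely with each member were found by Pearson correlation of log2(CPM + 1), which is a description over 8 points that share libraries and gates. *Wee2* was followed most closely by *C130026I21Rik*, *Olah* and *BC049730* (r = 0.999 for each), and *Gpr3* by *Tmem178b*, *Prr19* and *Lhx2* (r = 0.999 for each). *Fzr1* ran with *Cfap58*, *Gm48893* and *Dhrs2* (r = 0.994 to 0.996), *Cdk1* with *Atp5a1*, *Ccnh* and *Nfyc* (r = 0.988 to 0.989), and *Ccnb1* with the division genes *Nusap1* and *Plk1* and with *Nedd1* (r = 0.979, 0.965 and 0.957). *Pde3a* ran with *Hvcn1*, *Asxl3* and *Pola1* (r = 0.960 to 0.969). Of the somatic members, *Nppc* ran with *Wfdc10*, *Rlim* and *Clstn2* (r = 0.984 to 0.989), *Adcy3* with *Gas6*, *Mbtps1* and *Dtx3* (r = 0.996 to 0.998), and *Npr2* with *Sfxn1*, *BC028528* and *1190002N15Rik* (r = 0.993 to 0.997).

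A further list of 7 genes covered gonadotropin receptors and the EGF-like factors and their receptors, for the signals that later release the arrest. The receptors of luteinising hormone (*Lhcgr*) and follicle-stimulating hormone (*Fshr*) and the factor *Areg* were not tested, and the other 4 were. In germ cells 0 were higher by edgeR, by DESeq2 or at an unadjusted p under 0.05. By edgeR 1 was lower, where DESeq2 called all 4 lower. It was *Erbb2*, a receptor of the EGF family, at 3 and 2 UMIs (0.214 and 0.105 CPM) against 64.3 and 48.3 CPM in granulosa and 14.6 and 13.9 CPM in interstitial cells (adjusted p = 5.61e-07). In granulosa cells all 4 tested (*Ereg*, *Btc*, *Egfr* and *Erbb2*) were higher, where 18.3% of all genes were, with a median log2 change of 4.42 against 0.17 over all genes. In interstitial cells 3 of them (*Ereg*, *Egfr* and *Erbb2*) were also higher (2 by DESeq2), where 17.5% of all genes were. The median log2 change there was 1.46 against 0.03 over all genes.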

How the data were processed

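The authors deposited unnormalised UMI counts in whole numbers, as a matrix of genes by cells for each of 2 libraries, made with Cell Ranger 3.0.2 on GRCm38 according to the submitters' processing notes. The labels name version 2 of the 3′ kit and the methods version 3, and the counts cannot show which it was. The files hold 4094 and 4847 cells with 54471790 and 59074480 UMIs, and 21 barcodes occur in both libraries. A cell was kept if it had 500 genes or more and no more than 10% mitochondrial UMIs, and 102 and 93 doublets were removed with Scrublet in scanpy 1.11.5, at the automatic threshold of replicate 1 (0.224) in both libraries. That left 3636 and 4371 cells.

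Gates required at least 3 UMIs and 2 genes of the germ markers, 2 UMIs of the granulosa markers, 5 UMIs and both interstitial markers, or 2 UMIs of *Upk3b*. Leiden clusters were formed without the 10 genes. UMIs were summed per library and gate and tested with edgeR 4.0.16 (filterByExpr, TMM, quasi-likelihood, Benjamini-Hochberg adjustment) in R 4.3.3, with DESeq2 1.42.0 as an alternative. The test was checked on simulated data. CPM are UMIs per 1000000 summed UMIs. The gates of a library come from the same pups, and the deviations of a library correlated between gates by 0.03 to 0.23 over 14667 genes, so the library was used as a block in an alternative fit. With 2 libraries, p-values rest on the spread between these pools.

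The members, lists, motifs and gates were chosen with earlier results of these data known. All 10 members were named in every gate. Of each pathway list, the up to 4 genes with the largest change among those called in germ cells were named, and for each member with at least 50 UMIs the 3 genes of highest correlation. Positions come from the GENCODE annotation of GRCm38.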

Additional observations from a re-analysis of the deposited data

Results flagged for a closer look

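*Pde3a* was higher in cells outside the gates than in any of them. The perivascular cluster, which is led by *Rgs5*, *Ndufa4l2* and *Higd1b* and held 53 and 51 cells, stood at 94.5 CPM in replicate 1 and 53.9 CPM in replicate 2, from 25 and 13 UMIs. These levels compare with 15.6 and 13.0 CPM in germ cells and 14.6 and 18.4 CPM in interstitial cells. The exact Poisson intervals of the perivascular levels, 61.2 to 140 and 28.7 to 92.1 CPM, lie above every level of the germ, granulosa and interstitial gates. This was the rule by which the case was picked, from all members in the endothelial, immune and perivascular clusters. The position of the intervals therefore follows from the choice and is not a test. A *Pde3a* UMI was present in 34.0% and 17.6% of the perivascular cells. The 5 perivascular markers summed to 22.0 and 31.5 CPM in the interstitial gate, and their part in its *Pde3a* level was not tested.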

How the results depend on the processing

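In germ cells 8 or 9 members were called under every setting, granulosa cells had 6 to 9, and the *Zp3* parts 0. In interstitial cells 3 were called, to which DESeq2 added 1 lower. The count was 5 with clusters in place of gates, with the gate minimum doubled and with cells of more than 1 gate assigned. It was also 5 without replicate 1 and without replicate 2 (5 to 5, by fold alone), and 7 without the mesothelial gate, a setting chosen after seeing the data. In mesothelial cells 0 were called, 3 with clusters, 2 with cells of more than 1 gate assigned, and 4 to 6 by fold alone without replicate 1 or 2. The replicate block left these counts of member calls at 9, 7, 3, 0 and 0. It raised all genes called between the *Zp3* parts from 158 to 601; this count was 516 with no filter on low counts, 570 when only the upper and lower ends of the *Zp3* order were compared, and 917 to 981 by fold alone without replicate 1 or 2. No called member changed sign. Of those not called, 4 passed 2-fold in opposite directions under other settings: *Nppc* in interstitial cells (2.09 without replicate 2, -2.02 with clusters), *Wee2* in granulosa cells (1.32 without replicate 2, -2.36 with DESeq2), and in mesothelial cells *Gpr3* (2.03 with clusters, -5.38 without replicate 1) and *Npr2* (1.28 without replicate 2, -1.19 without replicate 1). Repeated member changes were those of called members and those between the *Zp3* parts, which were never called. Of these, 265 kept their state, called or not called. A call was lost in 9, 4 of them *Ccnb1* in germ cells (0.95 to 1.00). The granulosa split of higher and lower genes was 2691 to 896, and 2498 to 1792 with DESeq2. The mesothelial split was 924 to 397, and 1348 to 192 with DESeq2. The germ split was 4920 to 3166, and 4416 to 4723 without the mesothelial gate. The median germ change of all genes ran from -0.04 to 0.45. The cause of these shifts was not tested. Depth limits *Gpr3*, *Gpr12* and every mesothelial value.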

Other observations

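Cells outside the 4 gates carried parts of the system. The 179 and 379 cells of no gate held *Cdk1* at 172 and 162 CPM and *Ccnb1* at 61.3 and 73.7 CPM. *Npr2* was scarce there, at 2.61 and 3.69 CPM, and *Npr2* had 0 UMIs in the immune clusters of both libraries. In the endothelial cluster *Nppc* had 9 and 12 UMIs, 9.38 and 30.5 CPM, in 5% and 6.06% of its cells. Cells that passed more than 1 gate, summed as a set, held *Wee2* at 12.8 and 13.3 CPM and *Npr2* at 12.1 and 17.3 CPM. The set is a mixture, in which 1019 of 1606 cells passed the granulosa and interstitial gates alone. Others passed the germ gate, 128 of them with the granulosa gate alone. The 7 germ cell markers summed to 3542 and 4300 CPM in the set. A *Wee2* UMI was present in 5.36% and 9.44% of its cells and an *Npr2* UMI in 17.1% and 24.5%. Their presence in the same cells was not counted.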
